A study of Mus musculus with 18 samples.

Results

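The potassium channel genes of the mouse cerebellum were taken as every gene on the array whose symbol begins with Kcn, with Kcne2 left out. There were 61 such genes among 12393, and 34 of them were bright enough to be tested among 8320 genes. By symbol they fell into 5 classes. The voltage-gated class (Kcna, Kcnc, Kcnd, Kcnh, Kcnq, Kcns) held 20 genes on the array and 10 tested. The inward rectifiers (Kcnj) held 13 and 6, and the two-pore channels (Kcnk) 8 and 5. The class named calcium-activated (Kcnma, Kcnn and, by symbol alone, Kcnu) held 6 and 3. The auxiliary subunits (Kcnab, Kcne, Kcnip, Kcnmb) held 14 and 10.

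Potassium channels let potassium leave or enter the cell along its gradient and so set the resting potential, the shape of the action potential and the firing rate. In the cerebellum, voltage-gated channels repolarise granule, basket and Purkinje cells, calcium-activated channels shape Purkinje cell pauses, and glial inward rectifiers clear the potassium that firing neurons release. Two-pore channels carry background currents that hold cells near rest, and auxiliary subunits change how the pore subunits traffic and gate.

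The 18 arrays came from cerebella of adult male mice, aged 80 ± 5 days, of 3 genotypes: wild-type, ApoD knock-out, and transgenic mice that over-express human ApoD in neurons. ApoD is apolipoprotein D, a secreted lipid-binding protein. Mice of each genotype were injected intraperitoneally with paraquat, a redox-cycling herbicide, (30 mg/kg in 200 µl saline) or with as much saline alone, and the cerebellum was removed 6 h later. Each of the 6 groups had 3 arrays, and each array was a pool of RNA from 3 mice, so 9 mice stand behind a group and errors below are between pools, not single mice. The question in the design is how ApoD alters the early response to oxidative stress. The transgene promoter and the number of founder lines are not given in the sources used here. Arrays whose titles do not name paraquat were taken as saline from the protocol. In whole tissue, fewer cells of a type and less RNA per cell cannot be told apart.

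Values are log2 expression, one per probe set, and a log2 difference of 1.00 is a doubling. Every adjusted p is from limma (Benjamini-Hochberg, two-sided, over all 8320 genes unless another number is given), and a gene was called at an adjusted p under 0.05. With 3 arrays against 3, an exact permutation test of a single gene cannot go below 0.1, so none is given. The median pooled standard deviation within groups was 0.18 over the 34 tested potassium channel genes and 0.16 over all tested genes.

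Mouse Apod read 8.22 to 9.83 on the knock-out arrays, against 12.13 to 12.76 on all others, and was not higher on the transgenic arrays (12.13 to 12.35). Whether its probe set detects human ApoD was not tested. All 8 cerebellar marker genes fixed for the purpose were measured, with a mean log2 level of 11.26 to 11.57 on every array. Knock-out paraquat array 2 stood apart, with a median of 6.98 against 7.10 to 7.15 on the others and a mean correlation with the other arrays of 0.971 against 0.986 or more. Transgenic arrays 2 and 3 of both treatments had the lowest 18S ribosomal RNA control signals, 7.55 to 7.98 against 8.32 or more on the arrays of the other genotypes. Transgenic arrays numbered 3 had the smallest difference between the 3′ and 5′ pyruvate carboxylase controls (1.82 and 1.95, against 2.25 to 3.16 on the others).

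Paraquat moved few potassium channel genes. Kcna5, read by a dim probe set that lies below the level needed for the main test and was not shown to be above background, was higher in wild-type and knock-out mice in a fit without that filter. Kcna5 encodes a pore subunit of the Kv1 voltage-gated family. Under saline it read 4.85, 4.91 and 4.77 in wild-type and 4.70, 4.72 and 4.87 in knock-out mice. Under paraquat it read 5.82, 6.23 and 6.06 in wild-type and 5.96, 5.90 and 5.27 in knock-out mice. Every paraquat array of these genotypes was above every saline array. In the transgenic mice it read 5.14, 5.12 and 5.02 under saline and 5.48, 5.38 and 5.01 under paraquat, and the groups overlapped.

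The filter level, the 40th percentile of an array, was 6.30 to 6.40, and Kcna5 reached it on 0 of 18 arrays. Its test therefore comes from a fit of all 12393 genes without a filter, and it was picked out after its values were seen. In that fit Kcna5 rose in wild-type by 1.19 log2 units (SE 0.16, adjusted p 0.00028) and in knock-out mice by 0.94 (SE 0.16, adjusted p 0.0041). The transgenic change was 0.20 (SE 0.16, 95% interval -0.13 to 0.53, adjusted p 1). Without each array in turn, the wild-type adjusted p stayed between 1.6e-05 and 0.004 and that of the knock-out between 0.00012 and 0.034.

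Averaged over genotypes the rise of Kcna5 was 0.78 (SE 0.09, adjusted p 3.8e-05). Under paraquat the transgenic level was 0.75 below the wild-type level (log2 difference -0.75, SE 0.16, adjusted p 0.0055). The difference between the transgenic and wild-type responses was -1.0 (SE 0.22, 95% interval -1.47 to -0.53), with an adjusted p of 0.15, which did not pass. The adjusted p was 0.1 with quantile normalisation and 0.11 with the replicate number as a block, which did not pass either. It was 0.0095 when arrays were weighted by their quality. The leave-one-out adjusted p of this difference ran from 0.022 to 0.51. The knock-out response differed from that of the wild-type by -0.25 (95% interval -0.72 to 0.22, adjusted p 0.85). In the fit without a filter, 1.25% of all genes were called for paraquat in wild-type, 1.28% in knock-out, 3.04% on average and 11.8% for transgenic against wild-type under paraquat, and among the 61 potassium channel genes 1, 1, 2 and 9 were called.

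**Figure D1:**
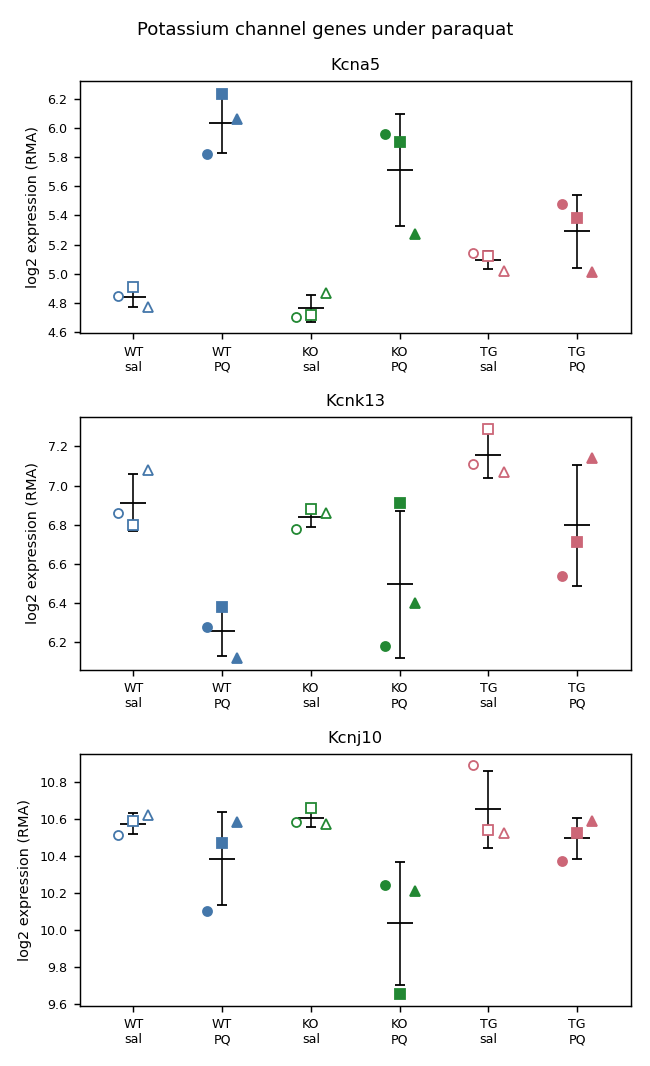
Log2 expression of Kcna5, Kcnk13 and Kcnj10 (vertical axes) on each of the 18 arrays by group (WT wild-type, KO knock-out, TG transgenic, sal saline, PQ paraquat), with circles, squares and triangles for replicates 1, 2 and 3, open symbols for saline, filled symbols for paraquat, and bars for the mean and standard deviation of 3 arrays. The Kcna5 means were 4.84 and 6.04 in wild-type saline and paraquat but 5.09 and 5.29 in transgenic, and the vertical axes do not start at 0.

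Among the 34 tested genes, Kcnk13 was lower under paraquat. It encodes THIK-1, a two-pore channel known as the main background potassium conductance of microglia. In wild-type mice it read 6.86, 6.80 and 7.08 under saline and 6.28, 6.38 and 6.12 under paraquat, with no overlap. The fall was 0.66 log2 units (log2 difference -0.66, SE 0.16, 1.58-fold lower, adjusted p 0.037), the only call among the 34, or 2.94%. For all genes the share called was 2%, and 0.469% were called lower. The call was lost without any 1 wild-type array or any 1 knock-out saline array (adjusted p 0.052 to 0.21), and also with quantile normalisation (0.065) and without a filter (0.056).

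In the knock-out Kcnk13 read 6.78, 6.88 and 6.86 under saline and 6.18, 6.91 and 6.40 under paraquat, where the high value is from array 2, which stands apart. The log2 difference was -0.34 (adjusted p 0.27), and -0.55 (adjusted p 0.058) without that array. In the transgenic mice it read 7.11, 7.29 and 7.07 under saline and 6.54, 6.71 and 7.14 under paraquat, a log2 difference of -0.36 (SE 0.16, adjusted p 1). Averaged over genotypes Kcnk13 fell by 0.45 log2 units (log2 difference -0.45, SE 0.09, adjusted p 0.0057), and this call was kept under all 29 alternatives (adjusted p at most 0.035). The knock-out and transgenic responses minus that of the wild-type were 0.31 and 0.30 (SE 0.23 each, adjusted p 0.87 and 1), and neither passed.

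Markers of microglia went both ways under paraquat. Of the 8 tested microglial markers, 1 was lower in wild-type, Cx3cr1, the fractalkine receptor (-0.75, adjusted p 0.015). Averaged over genotypes 2 of 8 were lower, Cx3cr1 (-0.61, adjusted p 0.00038) and P2ry12, a purinergic receptor (-0.44, adjusted p 0.027). The mean log2 level of the list was 8.31 to 8.43 on wild-type saline arrays and 8.25 to 8.29 on wild-type paraquat arrays. Every paraquat array was thus below every saline array, while the median difference was 0.07. In wild-type the list ran from -0.75 to 0.20. C1qa, C1qb, C1qc and Ctss were above 0 there, P2ry12 was below 0, Csf1r and Tmem119 were near 0, and none of these was called. Without overlap, P2ry12 read 6.97, 7.03 and 6.93 under saline and 6.33, 6.58 and 6.42 under paraquat. Ctss, which was higher, did not overlap either (10.02, 10.11 and 9.91, then 10.15, 10.16 and 10.18). The part of microglial number in the Kcnk13 result was not tested.

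Kcnj10 was the other gene lower on average. It encodes Kir4.1, the inward rectifier of astrocytes and Bergmann glia that takes up extracellular potassium. Under saline it read 10.51, 10.59 and 10.62 in wild-type and 10.58, 10.66 and 10.57 in knock-out mice. Under paraquat it read 10.10, 10.47 and 10.58 in wild-type and 10.24, 9.65 and 10.21 in knock-out mice. The transgenic arrays read 10.89, 10.54 and 10.52 under saline and 10.37, 10.52 and 10.59 under paraquat, and of the 3 genotypes only the knock-out had groups that did not overlap. Averaged over genotypes it fell by 0.30 log2 units (log2 difference -0.30, SE 0.09, adjusted p 0.049). In the knock-out the log2 difference was -0.57 (SE 0.15, adjusted p 0.052), in the wild-type -0.18 (adjusted p 0.89) and in the transgenic mice -0.15 (adjusted p 1), and the knock-out response minus that of the wild-type was -0.38 (SE 0.21, adjusted p 0.87).

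The average call of Kcnj10 lay at the threshold. It was lost with the replicate number as a block (adjusted p 0.057), without a filter (0.07) and without any 1 wild-type or knock-out saline array, wild-type paraquat array 1 or 2, or transgenic array 1 or 2 of either treatment (adjusted p 0.056 to 0.13). Without knock-out paraquat array 2, the lowest of all, the average was -0.24 (adjusted p 0.045) and the knock-out difference -0.37 (adjusted p 0.2). In the average comparison 0 of 10 astrocyte markers were called, while 2 of 8 oligodendrocyte markers were lower (Ugt8a, -0.59, and Sox10, -0.35), as were 3 of 7 endothelial markers (list median -0.31), and their part in the Kcnj10 result was not tested. The calls of Kcnk13 and Kcnj10 made up 5.88% of the tested potassium channel genes, beside 4.89% of all genes called in either direction and 2.88% called lower.

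No other potassium channel gene was called for paraquat. In the knock-out 0 of 34 were called and 5 (14.7%) had an unadjusted limma p under 0.05, while 2.26% of all genes were called and 17.8% had such a p. The smallest p values after Kcnj10 were those of Kcnk3, a two-pore channel of the acid-sensitive TASK group (-0.41, adjusted p 0.15, and called at 0.022 without knock-out paraquat array 3, but -0.21 and 0.55 without array 2, which stands apart), and Kcnj8, the pore of vascular ATP-sensitive channels (0.29, adjusted p 0.17). In the transgenic mice 0 of 34 were called and 2 (5.88%) had an unadjusted p under 0.05, and 0% of all genes were called and 1.42% had such a p. Those with the smallest p were Kcnk10 (0.40, SE 0.13), Kcnk13 and Kcna7, a Kv1 subunit (0.20, SE 0.12), each with an adjusted p of 1. In wild-type, the mechanosensitive two-pore channel Kcnk2 (TREK-1) and the small-conductance channel Kcnn2 (SK2) were higher on every paraquat array than on every saline array (0.34 and 0.24, adjusted p 0.33 and 0.45), and neither passed. Such a lack of overlap in wild-type was seen for 20.6% of the 34 and for 28.4% of all genes. By the test of the difference, 0 of 34 passed for the knock-out against the wild-type response (0% of all genes, with 1.78% of all genes and 1 potassium channel gene at an unadjusted p under 0.05, Kcnj8, 0.41, SE 0.15) and 0 of 34 for the transgenic response (0.18% of all genes, with 4.54% of all genes and 2 potassium channel genes at an unadjusted p under 0.05, Kcnk10, 0.52, and Kcnk2, -0.44).

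The bases just before the transcript starts of the 3 genes described so far are shown because these are the genes that moved with paraquat. The sequences are RefSeq's (build GRCm38.p6), 250 bases up to the start, 5′ to 3′ on the gene's strand. They lie at chr6:126535556-126535805 (minus strand), chr12:99964249-99964498 (plus strand) and chr1:172340960-172341209 (plus strand). Capitals mark matches on either strand to a glucocorticoid receptor half-site (TGTTCT), a GC box (GGGCGG), an E-box (CACGTG) or an AP-1 site (TGACTCA), none of which overlap here.
Kcna5: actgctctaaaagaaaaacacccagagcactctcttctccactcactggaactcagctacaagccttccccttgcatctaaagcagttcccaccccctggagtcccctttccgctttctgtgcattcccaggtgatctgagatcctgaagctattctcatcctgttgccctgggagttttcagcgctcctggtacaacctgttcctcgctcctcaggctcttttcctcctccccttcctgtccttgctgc
Kcnk13: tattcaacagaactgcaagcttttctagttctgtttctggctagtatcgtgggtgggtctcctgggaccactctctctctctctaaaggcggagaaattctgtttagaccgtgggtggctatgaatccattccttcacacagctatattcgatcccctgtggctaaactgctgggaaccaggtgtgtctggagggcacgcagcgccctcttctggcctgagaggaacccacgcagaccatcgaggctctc
Kcnj10: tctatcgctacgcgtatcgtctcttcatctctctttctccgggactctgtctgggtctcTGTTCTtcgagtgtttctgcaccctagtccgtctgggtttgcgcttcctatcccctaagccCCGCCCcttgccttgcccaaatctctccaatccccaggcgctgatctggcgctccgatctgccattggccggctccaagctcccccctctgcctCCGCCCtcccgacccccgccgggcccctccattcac

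The Kcnj10 window held 1 half-site match and 2 GC box matches, and the windows of Kcna5 and Kcnk13 held none of the 4 motifs. Of 32851 windows of this length, with chromosome 18 left out, 16.1% held the half-site, 32.7% the GC box, 6.02% the E-box and 4.46% the AP-1 site. Of the 41 windows found for 28 of the tested potassium channel genes, 14.6%, 39%, 9.76% and 4.88% did. A match describes letters in the window and does not show binding.

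The knock-out of ApoD changed no tested potassium channel gene past the threshold. Under saline 0 of 34 were called, 1 had an unadjusted limma p under 0.05, and 0.024% of all genes were called and 1.55% had such a p. That gene was Kcnj8, with 6.83, 6.98 and 6.89 in wild-type and 6.59, 6.56 and 6.37 in knock-out mice (-0.39, SE 0.11, unadjusted p 0.0016, adjusted p 1). The groups did not overlap, as for 26.5% of the 34 and 20.5% of all genes, and the adjusted p was 0.024 when only these groups were fitted. Kcnj11 and Kcna7 followed, at 0.23 and 0.18 (adjusted p 1 for both). Under paraquat 0 of 34 were called, 3 had an unadjusted p under 0.05 (Kcnj10, -0.35; Kcnk3, -0.33; Kcnk2, -0.29), and 0.012% of all genes were called and 13.2% had such a p. Without knock-out paraquat array 2 these values were -0.16, -0.14 and -0.11.

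A second probe set of Kcnma1 fell far below its wild-type values in the knock-out without passing the test. Kcnma1 encodes the pore of the large-conductance BK channel, opened by calcium and voltage together. Its brighter probe set, which represented the gene, read 9.21 to 9.39 in wild-type and 9.43 to 9.53 in knock-out mice under saline (0.18, SE 0.14, adjusted p 1). The other probe set read 8.60, 8.62 and 8.61 in wild-type saline and 7.79, 7.28 and 7.46 in knock-out saline, and 8.22, 8.96 and 8.47 against 7.63, 6.62 and 7.04 under paraquat. No knock-out value reached a wild-type value.

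In a fit of all 13118 probe sets, these differences were -1.10 (SE 0.29, unadjusted p 0.0014, adjusted p 1) and -1.46 (SE 0.29, unadjusted p 8.7e-05, adjusted p 0.16). They ranked 14 and 7 by p and did not pass. On the transgenic arrays the same probe set read 8.32, 7.92 and 7.36 under saline (-0.74 against wild-type, adjusted p 0.13) and 8.70, 7.58 and 7.68 under paraquat (-0.56, adjusted p 0.18). The probe sets of Kcnma1 therefore disagree in sign in all 4 comparisons with wild-type. Which transcripts each probe set detects was not tested, and this probe set was singled out after its values were seen.

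**Figure D2:**
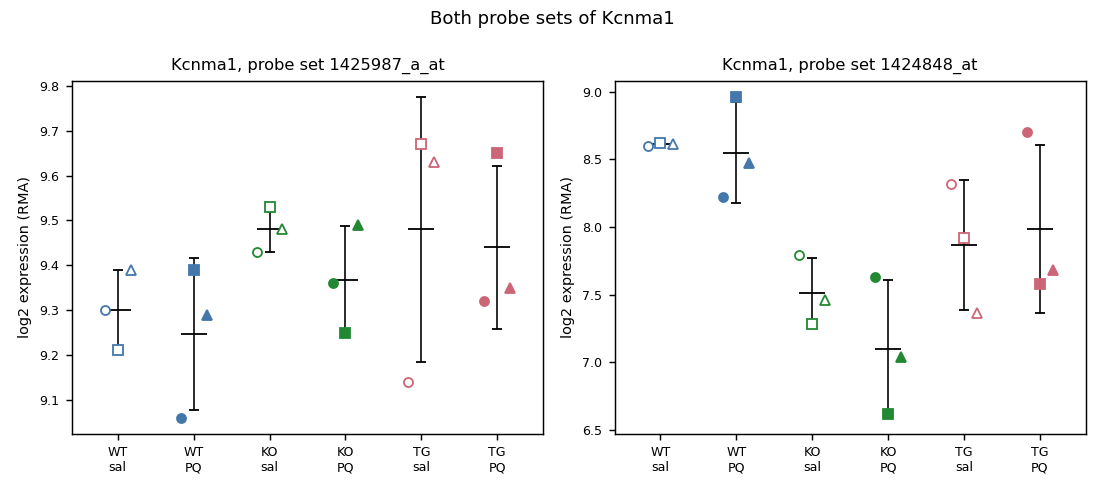
Log2 expression of both Kcnma1 probe sets (vertical axes, which do not start at 0) on each array by group, with circles, squares and triangles for replicates 1, 2 and 3, open symbols for saline, filled symbols for paraquat, and bars for the mean and standard deviation of 3 arrays. The left probe set has group means between 9.25 and 9.48, and the right one falls from 8.61 in wild-type saline to 7.51 in knock-out saline.

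The transgenic mice carried most of the differences among potassium channel genes. Under saline, Kcna6, Kcna2, Kcnj11 and Kcnj9 were higher than in wild-type, and 0 of 34 were lower. Under paraquat, 6 were higher (Kcnk10, Kcna2, Kcna6, Kcnj9, Kcnk13 and Kcnj12) and Kcnn2 and Kcnk2 were lower. Kcna2, Kcna6 and Kcnj9 were called under both treatments, 3 of 34, beside 409 of all 8320 genes. The comparisons under saline and under paraquat share no arrays. They do share the error estimate of the fit, so the calls are not fully independent. The 4 calls under saline were 11.8% of the tested genes, beside 6.36% of all genes called and 1.98% called higher. The 8 under paraquat were 23.5%, beside 19% of all genes called, 4.64% higher and 14.3% lower. The transgenic and wild-type arrays did not overlap for 26.5% of the 34 under saline and 44.1% under paraquat, beside 32.7% and 42% of all genes.

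The median log2 difference of the 34 genes was 0.17 under saline and 0.19 under paraquat, against -0.01 and -0.06 over all tested genes. The value was above 0 for 25 and 27 of the 34, or 73.5% and 79.4%, against 47.9% and 42% of all genes. The sign was the same under both treatments for 88.2% of the 34 (24 higher and 6 lower) and for 78.8% of all tested genes. Kcna6 and Kcnj11 reached the filter level only on transgenic arrays, so their presence among the tested genes depended on their being high there, and these counts are descriptions. Without the pair, 2 of 32 were called under saline, or 6.25%, and 7 of 32 under paraquat, or 21.9%. For those 32 genes the median log2 differences were 0.12 and 0.18, with 23 and 25 above 0. The 32 still hold Kcnmb2, which was not called. It reached the filter level on 1 wild-type saline array and otherwise only on transgenic arrays, so its presence depended on them too. Kcna6 was also called without a filter (adjusted p 0.048 and 0.0056), and Kcnj11 was not under saline (adjusted p 0.054). Without knock-out paraquat array 2, which is outside the contrast but enters the shared error estimate, 8 genes were called under saline, Kcne1l, Kcnip1 and Kcnmb4 higher and Kcnn2 lower beside the former 4.

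**Figure D3:**
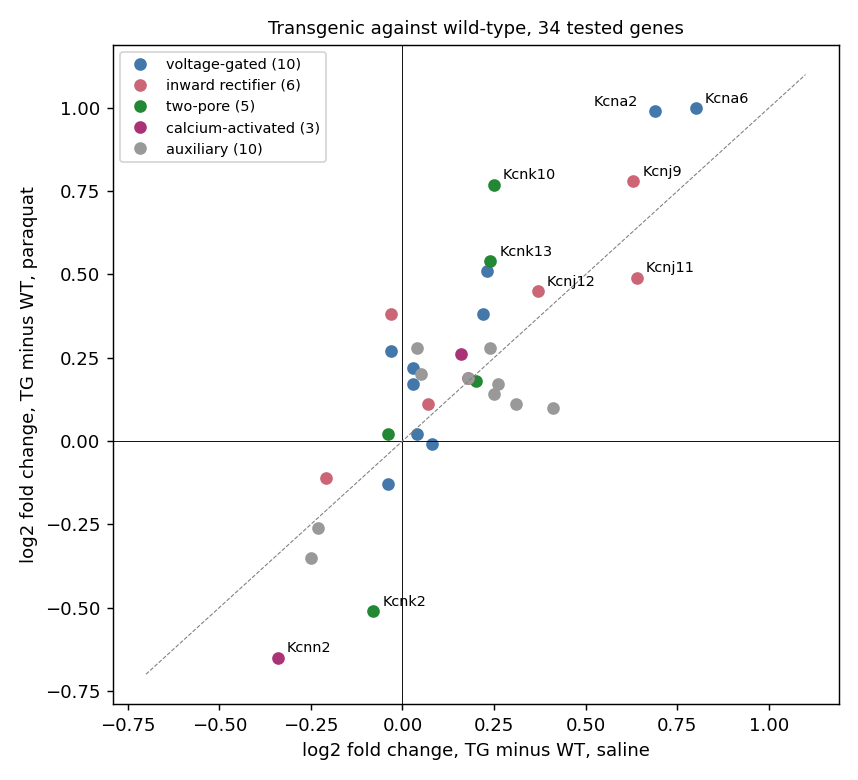
Log2 difference of transgenic minus wild-type under saline (horizontal axis) and under paraquat (vertical axis) for the 34 tested genes, 1 point each, coloured by class, with names for the genes called in either comparison and a dashed line of equal values. Kcna2 and Kcna6 lie farthest to the upper right and Kcnn2 and Kcnk2 lowest, and the auxiliary subunits lie between -0.35 and 0.41 on both axes.

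Kcna2 and Kcna6 encode Kv1 pore subunits that open at low voltage and limit axonal excitability, and in the cerebellum Kv1 channels crowd the basket cell terminals around Purkinje cells. Kcna2 read 6.73, 6.80 and 6.96 in wild-type saline and 7.32, 7.29 and 7.96 in transgenic saline. Under paraquat it read 6.49, 6.74 and 6.62 in wild-type and 7.26, 7.42 and 8.14 in transgenic mice. All transgenic values were above all wild-type and knock-out values. The log2 difference was 0.69 under saline (SE 0.18, 1.62-fold, adjusted p 0.031) and 0.99 under paraquat (SE 0.18, 1.99-fold, adjusted p 0.0014).

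Kcna6 read 5.38, 5.80 and 5.77 in wild-type saline against 6.02, 6.24 and 7.07 in transgenic saline, and 5.58, 5.71 and 5.42 against 6.30, 6.52 and 6.90 under paraquat. The groups did not overlap within a treatment, and the differences were 0.80 (SE 0.21, adjusted p 0.029) and 1.00 (SE 0.21, 2-fold, adjusted p 0.0032). For both genes transgenic array 3 of each treatment was the highest. Without it the saline differences were 0.47 for Kcna2 and 0.48 for Kcna6 (adjusted p 0.16 and 0.15), and those under paraquat stayed at 0.73 and 0.84 or more over all arrays left out, with adjusted p of at most 0.01 and 0.018 over all 29 alternatives.

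In the genome Kcna5, Kcna1 and Kcna6 are neighbours on chromosome 6, in that order by RefSeq, with no other protein-coding gene between them. Kcna1, which encodes the Kv1.1 subunit, was not called in any comparison. It read 11.19, 11.16 and 11.22 in wild-type saline and 11.55, 11.31 and 10.78 in transgenic saline, and its difference from wild-type was 0.03 (adjusted p 0.95) under saline and 0.17 (SE 0.18, adjusted p 0.53) under paraquat. Its paraquat change in wild-type was 0.00 (95% interval -0.37 to 0.37, adjusted p 1). The bases before the starts of Kcna2 and Kcna6 are shown because these genes were higher in the transgenic mice. They lie at chr3:107101317-107101566 (plus strand) and chr6:126740675-126740924 (minus strand), and held none of the 4 motifs.
Kcna2: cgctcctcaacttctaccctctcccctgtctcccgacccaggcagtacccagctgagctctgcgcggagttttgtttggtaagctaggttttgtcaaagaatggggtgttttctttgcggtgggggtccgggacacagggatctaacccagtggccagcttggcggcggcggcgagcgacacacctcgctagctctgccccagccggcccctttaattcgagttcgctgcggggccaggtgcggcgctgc
Kcna6: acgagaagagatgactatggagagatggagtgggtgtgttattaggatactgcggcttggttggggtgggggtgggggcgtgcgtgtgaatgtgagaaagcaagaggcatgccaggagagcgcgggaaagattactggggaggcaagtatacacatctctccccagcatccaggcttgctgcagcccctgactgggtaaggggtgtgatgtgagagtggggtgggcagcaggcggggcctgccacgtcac

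The other voltage-gated genes were not called in either comparison. Kcnc1, the Kv3 subunit that allows fast spiking, read 10.32, 10.35 and 10.41 in wild-type saline and 10.86, 10.82 and 10.09 in transgenic saline (0.23, adjusted p 0.52), and its difference under paraquat was 0.51 (SE 0.19, adjusted p 0.069). Kcnd2, the Kv4 subunit of the A-type current of granule cells, differed by -0.04 and -0.13 (adjusted p 0.87 and 0.52). Of the 10 voltage-gated genes 8 had a value above 0 under each treatment, with class medians of 0.06 and 0.25.

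**Figure D4:**
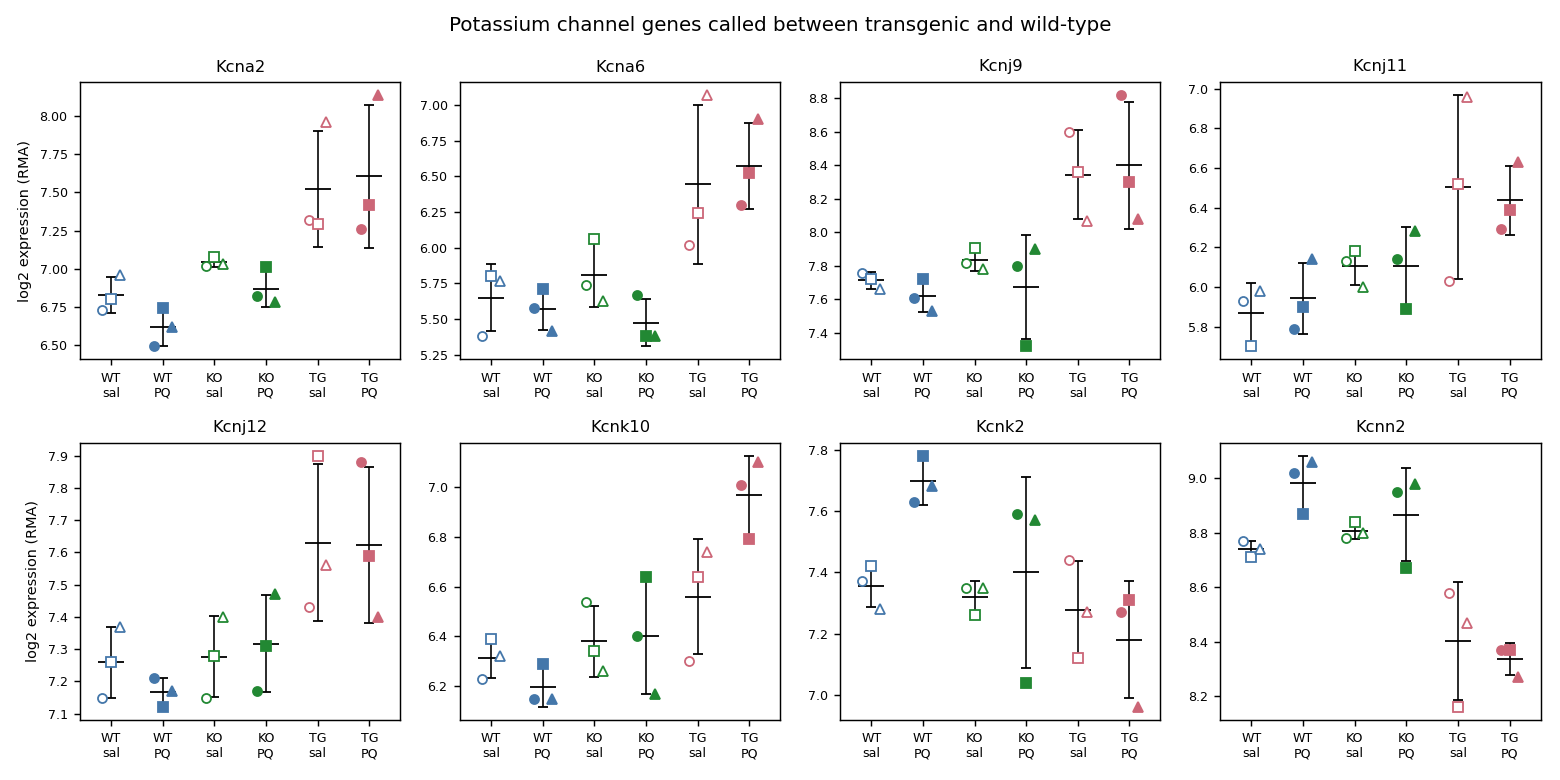
Log2 expression of 8 genes called between transgenic and wild-type mice (vertical axes, which do not start at 0 and differ between panels) on each array by group, with circles, squares and triangles for replicates 1, 2 and 3, open symbols for saline, filled symbols for paraquat, and bars for the mean and standard deviation of 3 arrays. Triangles are highest in both transgenic groups for Kcna2, Kcna6 and Kcnj11, while for Kcnj9 the circles are highest and the triangles lowest.

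Among the inward rectifiers, Kcnj9, the GIRK3 subunit opened by G proteins, was higher in transgenic mice under both treatments by its main probe set. It read 7.76, 7.72 and 7.66 in wild-type saline against 8.60, 8.36 and 8.07 in transgenic saline, and 7.61, 7.72 and 7.53 against 8.82, 8.30 and 8.08 under paraquat. All 6 transgenic values were above all others, and here array 1 was the highest. The same arrays, numbered 1, had the highest signals of the dap spike-in control, 12.27 and 12.62, against at most 11.34 on the arrays of the other genotypes, and its part in the Kcnj9 result was not tested. The differences were 0.63 (SE 0.17, adjusted p 0.032) and 0.78 (SE 0.17, adjusted p 0.004). Its other probe sets were dim and not tested. Their wild-type and transgenic values overlapped under saline (5.25 to 5.35 against 4.89 to 5.92, and 5.08 to 5.34 against 5.23 to 5.42). Kcnj9 lies next to Kcnj10 on chromosome 1, and Kcnj10 differed from wild-type by 0.07 and 0.11 (adjusted p 0.81 and 0.65).

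Kcnj11 encodes Kir6.2, the pore of neuronal ATP-sensitive channels, which pairs with the sulphonylurea receptor Abcc8. It read 5.93, 5.70 and 5.98 in wild-type saline and 6.03, 6.52 and 6.96 in transgenic saline, which did not overlap by a small margin (0.64, SE 0.17, adjusted p 0.034). Under paraquat it read 5.79, 5.90 and 6.14 against 6.29, 6.39 and 6.63 (0.49, SE 0.17, adjusted p 0.051). Kcnj12, the Kir2.2 rectifier, read 7.21, 7.12 and 7.17 against 7.88, 7.59 and 7.40 under paraquat (0.45, SE 0.13, adjusted p 0.022) and differed by 0.37 under saline (adjusted p 0.097). Kcnj6, the GIRK2 subunit, was below the filter, with group means of 6.02 to 6.32.

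The saline calls did not survive the loss of arrays. All 4 were lost without any 1 wild-type saline array (adjusted p 0.051 to 0.17). Kcna2, Kcna6 and Kcnj11 were lost without transgenic saline array 3 (Kcnj11 at 0.41, adjusted p 0.17), Kcna6, Kcnj11 and Kcnj9 without array 2 (adjusted p 0.06, 0.12 and 0.12), and Kcnj9 without array 1 (0.50, adjusted p 0.067). Under paraquat the Kcnj12 call was lost without any 1 wild-type paraquat array or transgenic paraquat array 1 (adjusted p 0.053 to 0.11).

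The two-pore channels went both ways in transgenic mice under paraquat. Kcnk10 and Kcnk2 encode TREK-2 and TREK-1, related channels opened by stretch, lipids and heat. Kcnk10 read 6.15, 6.29 and 6.15 in wild-type and 7.01, 6.79 and 7.10 in transgenic mice, with no overlap (0.77, SE 0.13, 1.7-fold, adjusted p 9e-04). Kcnk2 read 7.63, 7.78 and 7.68 in wild-type and 7.27, 7.31 and 6.96 in transgenic mice, also with no overlap but lower (-0.51, SE 0.14, 1.43-fold lower, adjusted p 0.013). Under saline the values were 0.25 for Kcnk10 (adjusted p 0.27) and -0.08 for Kcnk2 (adjusted p 0.77).

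Kcnk13 read 6.28, 6.38 and 6.12 in wild-type paraquat and 6.54, 6.71 and 7.14 in transgenic paraquat (0.54, SE 0.16, adjusted p 0.026). The wild-type paraquat arrays are the same ones in which it fell against saline, so these 2 results share samples. Under saline the transgenic level differed by 0.24 (adjusted p 0.4). The paraquat call was lost without wild-type paraquat array 1 or 3 or transgenic paraquat array 3 (adjusted p 0.065 to 0.13), and that of Kcnk2 without wild-type paraquat array 2 or transgenic paraquat array 3 (-0.47 and -0.40, adjusted p 0.06 and 0.064). Kcnk1, the TWIK-1 channel, did not pass in any comparison, and its transgenic differences were -0.04 (adjusted p 0.88) and 0.02 (adjusted p 0.91).

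Of the calcium-activated channels, Kcnn2 was lower in transgenic mice. It encodes SK2, which carries the afterhyperpolarising current of Purkinje cells. It read 9.02, 8.87 and 9.06 in wild-type paraquat and 8.37, 8.37 and 8.27 in transgenic paraquat, with no overlap (-0.65, SE 0.11, 1.57-fold lower, adjusted p 9e-04). Under saline it read 8.77, 8.71 and 8.74 against 8.58, 8.16 and 8.47, again without overlap (-0.34, SE 0.11, adjusted p 0.074). The main Kcnma1 probe set differed by 0.18 and 0.19 (adjusted p 0.45 and 0.33).

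No auxiliary subunit passed the test in any of the 10 comparisons through its main probe set. The 10 tested auxiliary genes had median transgenic differences of 0.21 under saline and 0.16 under paraquat, with 8 above 0 each time. Kcnip4, a KChIP that binds Kv4 channels and is abundant in cerebellar neurons, was among those below 0 (-0.23 and -0.26, SE 0.15 each, adjusted p 0.37 and 0.23). In the fit of all probe sets, 48 of the 89 potassium channel probe sets were tested and 10 were called in transgenic against wild-type under paraquat, or 20.8%, against 19.5% of all probe sets. These 10 included second probe sets of genes whose main probe set was not called, Kcnip3, also known as calsenilin (0.67, SE 0.18, adjusted p 0.017), and Kcnk3 (0.79, SE 0.16, adjusted p 0.0027), against 0.19 and 0.18 for their main probe sets.

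**Figure D5:**
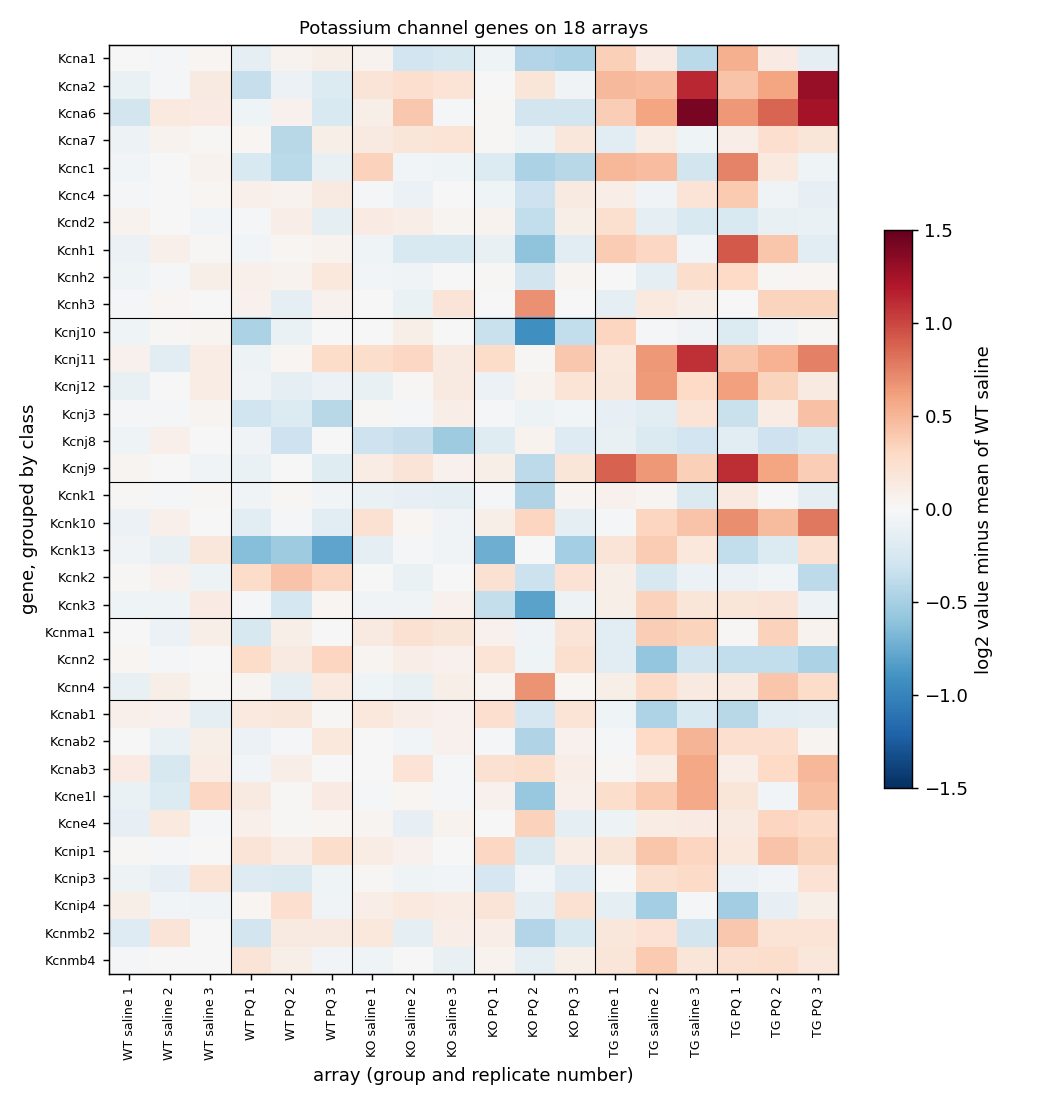
Log2 value of each of the 34 tested genes (rows, grouped by class and separated by lines) on each of the 18 arrays (columns, by group and replicate number) minus the mean of the 3 wild-type saline arrays, from -1.5 (blue) to 1.5 (red). The deepest red cells of Kcna2, Kcna6, Kcnj9 and Kcnj11 lie in transgenic columns. For Kcnj11, transgenic saline array 1 (6.03) is paler than knock-out paraquat array 3 (6.28). The column of knock-out paraquat array 2 differs from its 2 replicates in many rows.

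Genes that work with potassium channels were called in transgenic mice under paraquat at about the share of all genes. Of 29 listed partners 18 were tested (scaffolds, anchors, accessory proteins and receptors coupled to the channels). Of these, 0 were called for paraquat in any genotype or for the knock-out, 0 in transgenic mice under saline, and 2 higher and 2 lower under paraquat, or 22.2%, beside 19% of all genes. The higher ones were Cntn2, the adhesion protein that clusters Kv1 channels beside nodes (0.76, adjusted p 0.0089), and Gabbr1, the GABA-B receptor subunit that opens GIRK channels (0.41, adjusted p 0.043). The lower ones were Ank3, which anchors channels at the axon initial segment (-0.39, adjusted p 0.021), and Vapa, a membrane protein of the endoplasmic reticulum that tethers Kv2 channels (-0.33, adjusted p 0.047). Of 13 tested genes of potassium pumps, cotransporters and their regulators, 0 were called in any comparison. They were Atp1b1, Atp1b2, Atp1b3, Fxyd1, Fxyd6, Fxyd7, Slc12a2, Slc12a4, Slc12a5 and the kinase genes Stk39, Oxsr1, Wnk1 and Wnk2. No catalytic Atp1a subunit was among those tested, so the pump itself was not examined.

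Dlg2, a scaffold that binds the tails of Kv1 channels, separated the transgenic arrays numbered 3 from the rest. It read 8.25 and 8.22 on those 2 arrays, under saline and paraquat, and 5.32 to 6.82 on the other 16. Its mean difference from wild-type was 0.71 and 0.81 (adjusted p 0.46 and 0.31). It was singled out after its values were seen. The same 2 arrays were the highest of their groups for Kcna2, Kcna6 and Kcnj11 and had the smallest 3′ to 5′ control difference, and the part of these arrays' differences in the potassium channel results was not tested.

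Other markers moved with the transgenic groups. All 6 tested choroid plexus markers were lower under saline (median -1.61) and 3 of 6 under paraquat (median -0.72), and their mean log2 level was 6.32 to 7.42 on transgenic saline arrays against 8.29 to 8.56 on wild-type saline arrays. Of 10 astrocyte markers 2 were higher under saline and 3 under paraquat, among them Gfap (0.67 and 0.62, adjusted p 0.016 and 0.0095). Of 8 microglial markers 1 was lower under saline and 3 under paraquat, where Kcnk13 was higher. Of 7 endothelial markers 1 was lower under saline, and 2 were higher and 1 lower under paraquat. Under paraquat also 1 of 7 pericyte and smooth muscle markers was higher and 2 were lower, and 1 of 8 oligodendrocyte markers was higher. Of 8 Purkinje cell markers 1 was lower under paraquat, and the list ran from -0.35 to 0.35. Of all genes 6.36% were called under saline and 19% under paraquat, 4.64% higher and 14.3% lower there. The part of these markers in the potassium channel differences was not tested.

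The 27 genes below the filter were Kcna3, Kcna4, Kcna5, Kcnd1, Kcnd3, Kcnh7, Kcnq1, Kcnq5, Kcns1 and Kcns2 of the voltage-gated class, Kcnj1, Kcnj2, Kcnj4, Kcnj5, Kcnj6, Kcnj14 and Kcnj15, Kcnk4, Kcnk5 and Kcnk7, Kcnn1, Kcnn3 and Kcnu1, and the auxiliary Kcne1, Kcne3, Kcnip2 and Kcnmb1. In the fit without a filter Kcna5 was the only one of them called in any comparison. Kcnk9 and Kcnj16 were not analysed here.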

How the data were processed

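RNA of 18 pools was hybridised to Affymetrix 3′ arrays. Each array has 1 deposited log2 value per probe set, and the submitters' processing notes name RMA, with no version. RMA corrects background, normalises by quantiles and summarises probes. Which arrays were normalised together is not given in the sources used here. Scanner files were not used, so scan batches and background could not be looked at here. Values were not centred by gene. Precision is limited by the number of arrays, and the median half-width of a 95% interval was 0.27 between 2 groups.

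The table held 22690 probe sets, 64 of them controls. The platform annotation, which can be old, gave 1 symbol for 20380, several for 691 and none for 1555; only the first were used. A gene's probe set of highest mean over all arrays stood for it, and it was tested where 3 arrays or more had it at or above their 40th percentile. All 18 arrays were fitted with 6 group means in limma 3.58.1 (R 4.3.3, lmFit and eBayes, 12 residual degrees of freedom), and p-values were adjusted over all genes in each of 10 comparisons. The script was checked on simulated data. Named were every called potassium channel gene, the 3 of smallest p where fewer than 3 were called, 14 chosen for their role in the cerebellum and up to 4 called partners per comparison. The gene lists and members were chosen with earlier results of these data known. Alternatives were other scaling, filters, all probe sets, the groups compared alone, array weights, blocks, and leaving out arrays. All 61 symbols matched RefSeq. Deviations of same-numbered saline and paraquat arrays correlated at 0.16, 0.13 and 0.42 in the transgenic genotype. Saline array 1 with paraquat array 2 gave 0.16, and saline array 2 with paraquat array 1 gave 0.14. The check therefore sets the arrays numbered 3 apart and does not pair those numbered 1 and 2. The block left the count for paraquat in transgenic mice at 0.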

Additional observations from a re-analysis of the deposited data

How the results depend on the processing

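Counts of called potassium channel genes are given in turn for each choice. With quantile normalisation they were 0 for paraquat in wild-type, 1 in knock-out and 7 in transgenic against wild-type under saline, and with median centring 0 for paraquat in wild-type and 1 in knock-out. Without a filter they were 1 for paraquat in knock-out and 2 for transgenic under saline, and with a filter at the 20th percentile 2 in wild-type and 1 in knock-out. With all probe sets they were 0 for paraquat in wild-type and 1 on average. With only the groups compared they were 3 for paraquat in wild-type and, under saline, 1 for the knock-out and 1 for the transgenic group, each against wild-type. With array weights they were 4, 8, 2 and 10 for paraquat in wild-type, knock-out, transgenic and on average, 1 for knock-out under saline, 22 and 23 for transgenic under saline and paraquat, and 2 for the transgenic difference in response. The cause was not tested.

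With the replicate number as a block, 1 gene was called for paraquat on average, and with a block within genotype 1 in knock-out. Deviations of same-numbered arrays correlated at 0.09, 0.15 and 0.34 in wild-type and -0.09, -0.28 and -0.12 in knock-out. In wild-type, saline array 1 with paraquat array 2 gave 0.1, so only the arrays numbered 3 stood out. In the knock-out, saline array 2 with paraquat array 3 gave 0.3, so there same-numbered arrays share only a number. The block changed no other count by more than 1.5 times. Leaving out 1 array, or both transgenic arrays of a number (chosen after seeing the data), gave 0 to 1 genes for paraquat in wild-type, 0 to 2 in knock-out, 0 in transgenic, 1 to 3 on average, 0 to 8 for transgenic under saline and 6 to 12 under paraquat. Without each array in turn, 0 called genes changed sign in any comparison, while 6 to 23 of the 34 tested genes did, depending on the comparison. Quantile normalisation moved the median of all genes for knock-out against wild-type under paraquat from -0.12 to -0.02.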
